A study of Papio with 24 samples.

Results

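Marker genes of mesothelium and simple epithelium were read in fat progenitor cells of fetal baboons. There were 8 of them: the keratin genes KRT7, KRT8, KRT18 and KRT19, the mesothelial genes CALB2, MSLN and UPK3B, and the epithelial gene EPCAM. Every probe that the platform annotation assigned to 1 of these symbols was taken, which gave 15 of the 48803 probes on the array. KRT7, KRT8, KRT19 and MSLN had 1 probe each, KRT18, CALB2 and EPCAM had 2, and UPK3B had 5. Of these, 7 probes of 5 genes were detected often enough to be tested, among 16933 tested probes in all. All 15 probes are accounted for here.

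Mesothelium is the flat sheet of cells that lines the body cavities and covers the omentum, and it derives from mesoderm although it carries epithelial features. Keratins are the intermediate filament proteins of epithelia. They assemble as pairs of a type II keratin, such as KRT7 or KRT8, with a type I keratin, such as KRT18 or KRT19, and simple epithelia and mesothelium both use this set. CALB2 encodes the calcium-binding protein calretinin and MSLN the surface glycoprotein mesothelin, and both are used in pathology to recognise mesothelium. UPK3B encodes a uroplakin that mesothelial cells also make, and EPCAM encodes an adhesion molecule of epithelia that is usually absent from mesothelium. Subcutaneous fat has no mesothelial cover.

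The cells came from 8 fetuses taken at gestational day 165, when term is day 184. In the restricted group, 4 fetuses (restricted_9085, restricted_2820, restricted_9075 and restricted_9073) had mothers on a diet cut by 30% through pregnancy. In the control group, 4 fetuses (control_9017, control_9087, control_8011 and control_8009) had mothers that ate freely. Omental, subcutaneous abdominal and subcutaneous femoral fat of each fetus gave 1 array each, so 24 arrays formed 6 groups of 4. Each diet group held 1 male (restricted_9085 and control_9017) and 3 females. All groups were adherent cells grown out in serum from collagenase digests, frozen, thawed and grown to confluence, and the RNA of 3 wells was pooled. They are therefore cultured cells and not fat tissue, and the labels name no sort on surface markers. Between 13102 and 14994 probes were detected per array. Arrays of 1 depot were alike: an array's median correlation with the other arrays of its depot was 0.970 to 0.988, and in each depot it was lowest for fetus restricted_2820 (0.979 omental, 0.970 abdominal and 0.979 femoral). The fibroblast and progenitor genes PDGFRA, PDGFRB, CD34, DCN, COL1A1, COL1A2 and COL3A1 were detected on 24 of 24 arrays, and THY1, which usually defines such cells, was detected on 0. Of 9 macrophage and blood genes on the array, 6 were detected on 0 arrays, PTPRC among them. CD14 and CD68 were detected on 24 arrays and LYZ on 22. Of 10 endothelial genes, 1 was detected on 0 arrays, CDH5. TEK was detected on 22 arrays, KDR on 19, PECAM1 on 17 and VWF on 15. Arrays carried human probes, and how well each one binds baboon RNA was not assessed. A probe is therefore compared here only with itself across arrays, with some exceptions. These are the summed signals of gene lists, which follow their brightest probes, and the gaps between keratins and CALB2. The gaps set the depot differences of different probes against each other. Values are log2 intensities after background modelling and quantile normalisation, and a probe counted as detected on an array where its detection p was under 0.05.

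The most used keratin pair of simple epithelia gave no detectable signal. KRT8 (probe ILMN_1753584), the type II partner, was detected on 0 of 24 arrays and ran only between 4.27 and 4.49. KRT18, its type I partner, was detected on 0 arrays by either probe, at 4.30 to 4.72 (ILMN_1730848) and 4.26 to 4.40 (ILMN_1803408). MSLN (ILMN_2353161) was likewise detected on 0 arrays, at 4.31 to 4.50. These readings lie at background in every depot and both diets, so no level, order or diet difference can be given for KRT8, KRT18 or MSLN, and a probe that misses the baboon transcript would read the same way. UPK3B was close to background as well. Its probes 3, 4 and 5 (ILMN_1803024, ILMN_2353276 and ILMN_2264177) were detected on 0 arrays, its probe 2 (ILMN_1706441) on 1 array, at 4.81 in restricted femoral cells, and its probe 1 (ILMN_1701565) on 9 arrays.

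KRT7 (ILMN_2163723) was detected on all 24 arrays and was dimmest in omental cells. In omental cells it read 6.53, 8.39, 7.46 and 7.86 in restricted fetuses (in the order given above), against 7.35, 6.79, 7.98 and 6.96 in control fetuses. In abdominal cells the values were 7.78, 8.26, 9.20 and 8.31 in restricted fetuses, against 8.55, 8.88, 9.05 and 7.23 in control fetuses. In femoral cells they were 8.92, 8.62, 9.83 and 8.94 in restricted fetuses, against 8.59, 7.86, 7.93 and 7.88 in control fetuses. The restricted and control arrays overlapped in the omental and abdominal depots, and in femoral cells the lowest restricted array stood just above the highest control array. Over both diets KRT7 averaged 7.42 ± 0.64 in omental, 8.41 ± 0.67 in abdominal and 8.57 ± 0.68 in femoral cells (SD, n = 8 each). The abdominal and femoral means differed by less than the spread within either depot.

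KRT19 (ILMN_1730777), the smallest keratin of simple epithelia, had the opposite order. Omental cells read 6.28, 7.54, 7.80 and 6.88 in restricted fetuses, against 5.14, 6.63, 6.90 and 7.38 in control fetuses, and all 8 arrays were detected. Abdominal cells read 4.34, 8.22, 6.12 and 7.05 in restricted fetuses, against 4.53, 5.04, 5.10 and 5.67 in control fetuses. Femoral cells read 5.33, 6.70, 5.64 and 4.99 in restricted fetuses, against 4.47, 4.43, 4.40 and 4.59 in control fetuses. Both male fetuses lacked detection in abdominal cells (the 4.34 and 4.53 readings), and 0 of 4 control arrays were detected in femoral cells. The depot means were 6.82 ± 0.84 in omental, 5.76 ± 1.33 in abdominal and 5.07 ± 0.80 in femoral cells (SD, n = 8 each). Every pair of depots overlapped, omental and femoral cells included (lowest omental reading 5.14, highest femoral reading 6.70). The abdominal cells of fetus restricted_2820 held the highest of the 24 readings.

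CALB2 was read by a pair of probes to the same annotated transcript, and they did not give the same picture. Probe 1 (ILMN_1748840) read 7.12, 6.70, 9.49 and 7.10 in restricted omental cells, against 9.11, 8.37, 9.24 and 8.02 in control omental cells. In abdominal cells it read 7.19, 5.98, 8.04 and 6.87 in restricted fetuses, against 6.92, 6.50, 6.38 and 4.70 in control fetuses, with only the 4.70 reading not detected. In femoral cells it read 5.79, 4.53, 6.65 and 4.49 in restricted fetuses, against 5.68, 4.88, 4.44 and 4.71 in control fetuses. Its signal thus stepped down over the depots, at 8.14 ± 1.08 in omental, 6.57 ± 0.97 in abdominal and 5.15 ± 0.80 in femoral cells (SD, n = 8 each), and in femoral cells it was detected on 4 of 8 arrays. Probe 2 (ILMN_2383807) was detected on all 24 arrays within a narrow band of 5.22 to 6.36. Its depot means of 5.56 ± 0.21 in omental, 5.73 ± 0.27 in abdominal and 5.75 ± 0.23 in femoral cells (SD, n = 8 each) overlapped fully. Every statement on CALB2 below therefore names its probe.

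**Figure D1:**
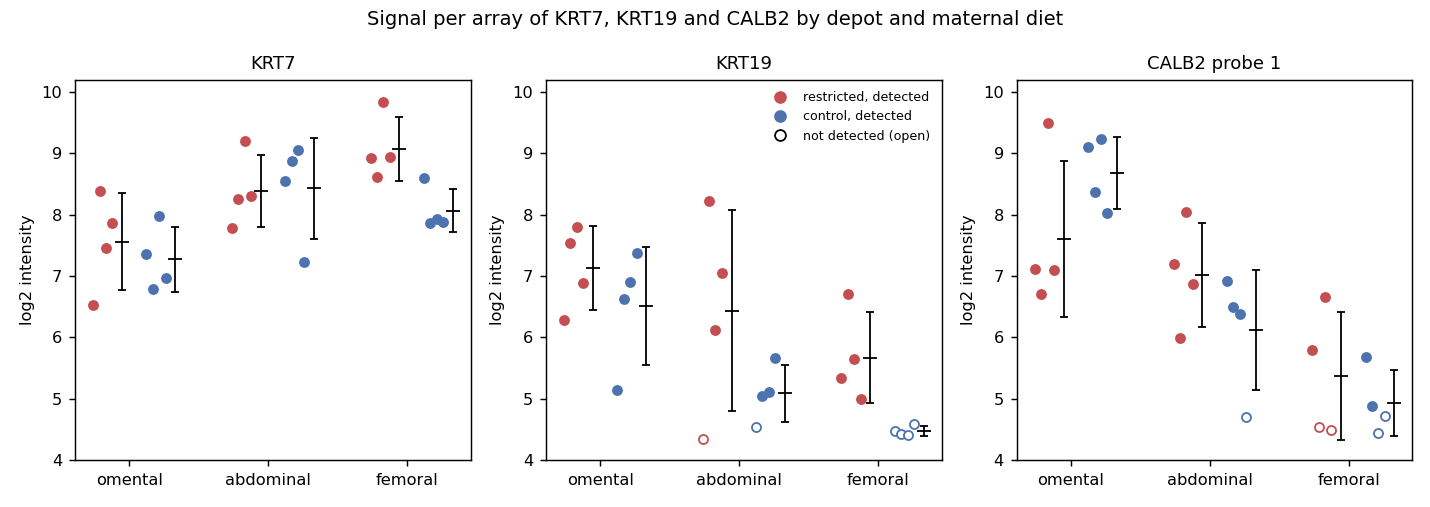
Log2 intensity of KRT7, KRT19 and CALB2 probe 1 on each of the 24 arrays, by depot, with restricted fetuses in red to the left of control fetuses in blue; bars give the mean and SD of 4 arrays and open points are not detected. KRT7 is lowest in omental cells (mean 7.42), while KRT19 and CALB2 probe 1 are highest there (means 6.82 and 8.14), and the 4 control femoral arrays of KRT19 are all open.

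EPCAM differed little between depots. Probe 1 (ILMN_2160210), detected on 22 arrays, read 4.96, 7.07, 5.02 and 6.10 in restricted omental cells, against 4.88, 4.94, 5.56 and 4.84 in control omental cells. In abdominal cells it read 4.68, 5.12, 6.09 and 6.52 in restricted fetuses, against 4.93, 5.45, 5.58 and 4.45 in control fetuses. In femoral cells it read 5.50, 5.74, 6.77 and 5.47 in restricted fetuses, against 5.08, 5.26, 5.37 and 5.36 in control fetuses. The readings above 6, a cut not planned beforehand, came from fetuses restricted_2820, restricted_9075 and restricted_9073, and no diet difference of this probe passed. The depot means of 5.42 ± 0.80 in omental, 5.35 ± 0.71 in abdominal and 5.57 ± 0.52 in femoral cells (SD, n = 8 each) lay well within their spread. Probe 2 (ILMN_2160209) stayed between 4.56 and 5.0 and was detected on 10 arrays. UPK3B probe 1 stayed between 4.49 and 4.89, and its 9 detections were 0 restricted and 1 control array in omental cells, 3 and 1 in abdominal cells, and 1 and 3 in femoral cells.

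**Figure D2:**
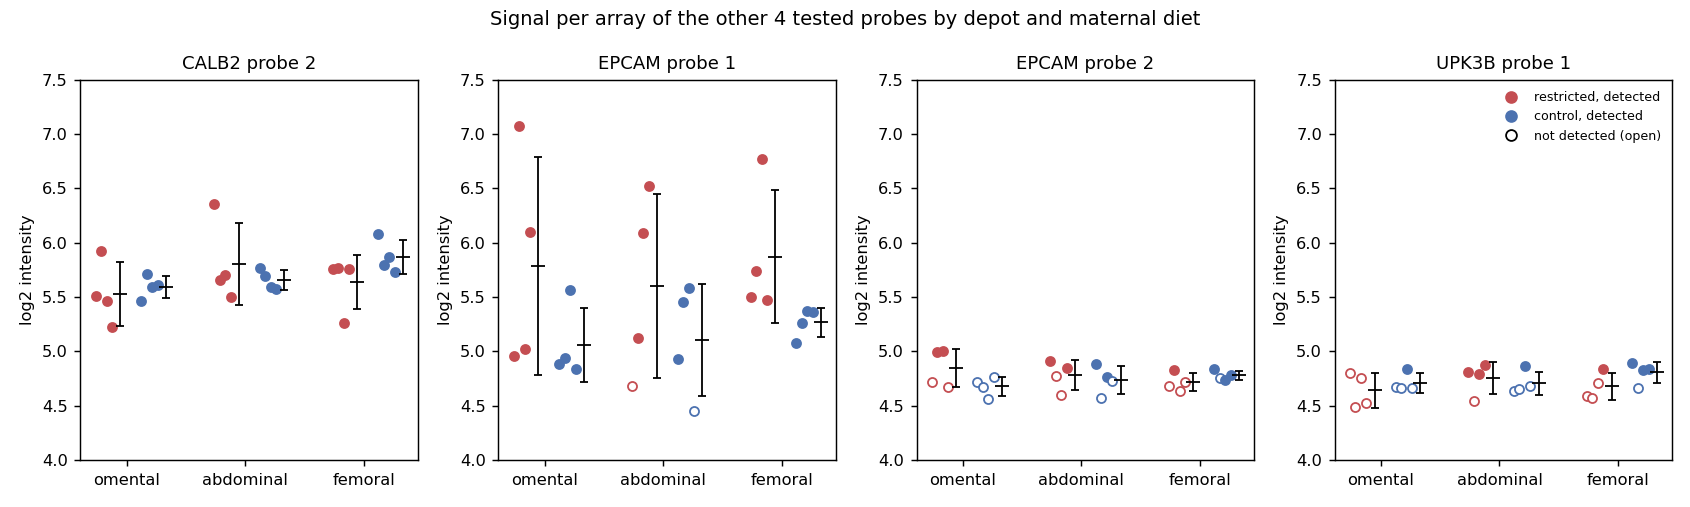
Log2 intensity of CALB2 probe 2, both EPCAM probes and UPK3B probe 1 on each of the 24 arrays, by depot, with restricted fetuses in red to the left of control fetuses in blue; bars give the mean and SD of 4 arrays and open points are not detected. The depot means of EPCAM probe 1 differ little (5.42, 5.35 and 5.57), and the other probes stay in narrow bands such as 4.49 to 4.89 for UPK3B probe 1. Readings of EPCAM probe 1 above 6, a cut not planned beforehand, are all restricted, but its diet difference passed in no depot.

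Omental and femoral cells, the depots that differed most, were separated by 3 marker genes, and the keratins among them moved in opposite directions. CALB2 probe 1 was higher in omental cells by 3.0 ± 0.43 (SE; 95% interval 2.08 to 3.92; limma adjusted p 0.000201), which is 7.99-fold. It was higher in 8 of 8 fetuses, as were 5.39% of tested probes, and its lowest omental reading (6.70) stood just above its highest femoral reading (6.65); 1.16% of tested probes were separated that way. KRT19 was higher in omental cells by 1.75 ± 0.31 (1.10 to 2.41; adjusted p 0.00112), which is 3.37-fold, again in 8 of 8 fetuses. Both folds set detected omental arrays against femoral arrays of which 4 of 8 were detected. KRT7 fell by 1.15 ± 0.26 (interval -1.71 to -0.60; adjusted p 0.00754) in omental cells, to 7.42 against 8.57 in femoral cells, and was lower in 7 of 8 fetuses. In fetus control_8011 the omental reading of KRT7 was 0.05 above the femoral one. Unlike those of CALB2 probe 1, the omental and femoral readings of KRT19 overlapped, and so did those of KRT7. In cultures of mixed cells a lower signal can come from fewer cells of a kind or from less RNA per cell, and the arrays cannot tell these apart.

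Of the 7 tested marker probes, 3 were called, beside 10.9% of all tested probes (5.33% higher and 5.60% lower in omental cells). CALB2 probe 2 differed by -0.19 ± 0.10 (interval -0.41 to 0.02; adjusted p 0.291). That interval holds for the signal of probe 2 alone, and which CALB2 probe reads the baboon RNA better was not assessed. EPCAM probe 1 differed by -0.15 ± 0.27 (-0.71 to 0.41; 0.835), EPCAM probe 2 by 0.01 ± 0.07 (0.947) and UPK3B probe 1 by -0.07 ± 0.06 (0.641). Leaving out any 1 fetus kept all 3 calls, with adjusted p values of 3.66e-05 to 0.0244. The median difference was -0.07 over the 5 genes with a tested probe and 0.00 over all tested probes.

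**Figure D3:**
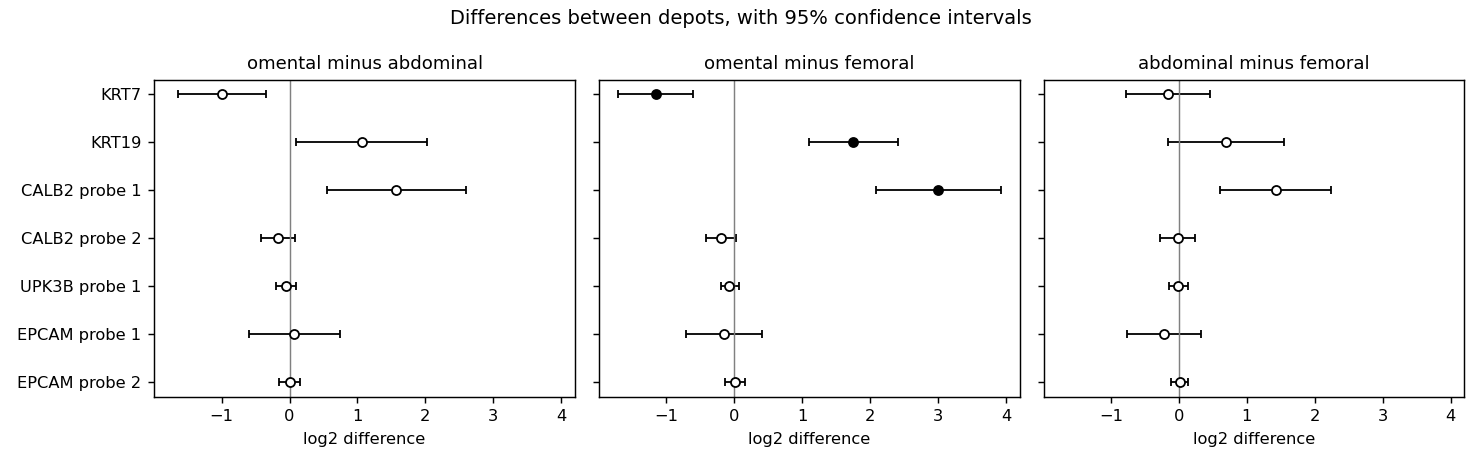
Log2 difference between depots for the 7 tested marker probes, 1 panel per pair, with 95% confidence intervals; filled points passed at an adjusted p under 0.05 and open points did not. In the omental minus femoral panel CALB2 probe 1 (3.0) and KRT19 (1.75) lie right of 0 and KRT7 (-1.15) lies left of it, and the other panels hold open points only. The fit shown has no fetus block. With the fetus as a block, CALB2 probe 1, KRT7 and KRT19 passed for omental minus abdominal, and CALB2 probe 1 for abdominal minus femoral. With the fetus as a random block, KRT19 and the abdominal minus femoral difference did not pass.

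Between omental and abdominal cells the same 3 probes differed in the same directions without passing. Limma called 0 of the 7 marker probes, beside 4.62% of all tested probes, and 3 of the 7 had an unadjusted p under 0.05. CALB2 probe 1 differed by 1.57 ± 0.48 (0.55 to 2.59; adjusted p 0.077; higher in 7 of 8 fetuses), KRT7 by -0.99 ± 0.30 (-1.64 to -0.35; 0.0786; lower in 7 of 8) and KRT19 by 1.06 ± 0.46 (0.09 to 2.03; 0.239; higher in 6 of 8). With the fetus as a block, which the shared animals justify, all 3 passed: CALB2 probe 1 at an adjusted p of 0.0174, KRT7 at 0.0169 and KRT19 at 0.0428, beside 9.62% of tested probes. With all 24 arrays in the model and the fetus as a random block, KRT19 just missed the threshold (adjusted p 0.0509). The KRT19 exceptions were fetuses restricted_2820 (-0.68) and restricted_9073 (-0.17), whose abdominal cells read 8.22 and 7.05. EPCAM probe 1 differed by 0.07 ± 0.32 (-0.60 to 0.74), CALB2 probe 2 by -0.17 ± 0.12 (-0.42 to 0.08), EPCAM probe 2 by 0.00 ± 0.07 and UPK3B probe 1 by -0.05 ± 0.07.

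Between the subcutaneous depots, abdominal and femoral, the widest difference was again that of CALB2 probe 1. It differed by 1.43 ± 0.38 (0.61 to 2.24) and was higher in abdominal cells of 7 of 8 fetuses, with a limma adjusted p of 0.445 in the fit without a block and 0.0162 with the fetus as a block, beside 0.177% of tested probes. With all 24 arrays in the model and the fetus as a random block it did not pass (adjusted p 0.0711). Limma called 0 of the 7 marker probes without the block, beside 0.0768% of all tested probes, and CALB2 probe 1 alone had an unadjusted p under 0.05 (0.00187). KRT19 differed by 0.69 ± 0.40 (-0.16 to 1.55; higher in 7 of 8 fetuses) and KRT7 by -0.16 ± 0.29 (-0.78 to 0.46; lower in 6 of 8). The other marker probes differed by at most 0.22 in size, the value of EPCAM probe 1 (-0.22 ± 0.26).

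The keratins were then set against CALB2 fetus by fetus. For each fetus the depot difference of CALB2 probe 1 was taken from that of the keratin. Each probe thus entered as a difference from itself, but the gap sets the sizes of different probes' differences against each other. Whether these probes respond equally to their RNA was not tested. KRT7 lay below CALB2 in 8 of 8 fetuses for every pair of depots. The mean gap was -4.15 ± 0.88 for omental minus femoral, -2.56 ± 1.47 for omental minus abdominal and -1.59 ± 0.90 for abdominal minus femoral (SD, n = 8 fetuses). Each gave an exact two-sided sign-flip permutation p of 0.00781, the smallest that 8 fetuses allow, and 0.0187 after adjustment over the 24 planned tests. The measured depot differences of KRT7 and of CALB2 probe 1 were thus unequal in every pair. Their means had opposite signs, although that of KRT7 between abdominal and femoral cells was small (-0.16 ± 0.29, SE). The mean gaps of KRT19 were smaller. The gap was -1.25 ± 0.87 for omental minus femoral (below CALB2 in 8 of 8 fetuses; exact permutation p 0.00781, adjusted 0.0187). KRT19 and CALB2 probe 1 were each detected on only 4 of 8 femoral arrays. Where both were undetected, this gap reflects the omental signals of different probes. Both probes were higher in omental cells, so the gap is one of size between probes, and its size is uncertain. For omental minus abdominal the gap was -0.51 ± 1.22 (6 of 8; exact p 0.281, adjusted 0.321), and for abdominal minus femoral -0.73 ± 1.03 (6 of 8; exact p 0.0781, adjusted 0.0987). Without restricted_9085, the omental minus abdominal gap was -0.87 with an adjusted exact p of 0.0441.

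These gaps depended on the CALB2 probe, an alternative that was added after seeing the data. Against probe 2, KRT7 still lay lower for omental minus abdominal (-0.82, adjusted exact p 0.0375) and omental minus femoral (-0.96, 0.0417), but not detectably for abdominal minus femoral (-0.14, 0.786). KRT19 then lay above CALB2, by 1.94 for omental minus femoral (adjusted exact p 0.0375), 1.23 for omental minus abdominal (0.0682) and 0.71 for abdominal minus femoral (0.176). The other 18 of the 24 tests, all those with KRT8, KRT18 or MSLN, are void because these genes were detected on no array. The comparison of keratins with MSLN could therefore not be made.

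**Figure D4:**
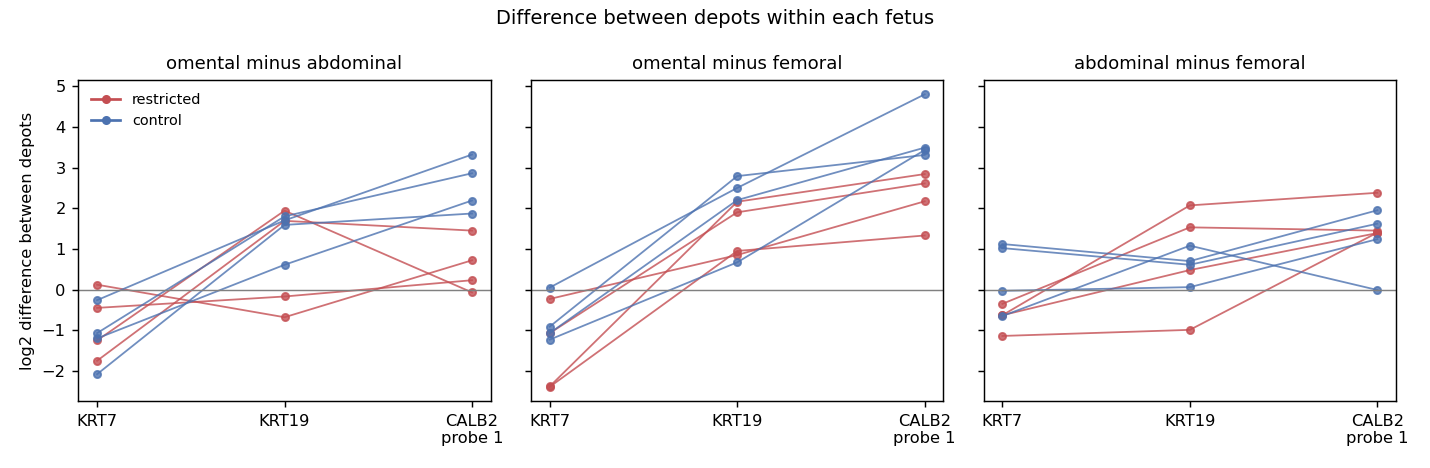
Log2 difference between depots within each fetus for KRT7, KRT19 and CALB2 probe 1, with 1 line per fetus (restricted in red, control in blue). In every panel all 8 lines are lower at KRT7 than at CALB2 probe 1, with a mean gap of -4.15 for omental minus femoral. In that panel KRT19 lies in between in all 8 fetuses, with KRT19 and CALB2 probe 1 each detected on 4 of 8 femoral arrays.

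Within a depot, no relation between a keratin and CALB2 probe 1 across fetuses passed after adjustment. KRT7 and CALB2 probe 1 had a Pearson r of 0.732 in femoral cells (exact permutation p 0.0402, adjusted over 24 relations 0.321) and a Spearman rho of 0.31 (exact p 0.462, adjusted 0.92). Without the 2 fetuses farthest from the median of CALB2 probe 1, r was 0.0958, so the relation rested on those fetuses. In abdominal cells r was 0.649 (exact permutation p 0.0813, adjusted 0.488; rho 0.429, exact p 0.299) and -0.46 without the 2 farthest fetuses. In omental cells r was -0.0893 (exact permutation p 0.831, adjusted 0.95; rho -0.0952, exact p 0.84). KRT19 with CALB2 probe 1 gave r values of -0.137 in omental, -0.168 in abdominal and 0.136 in femoral cells (adjusted exact permutation p 0.921 to 0.924), and rho values of 0.0714, -0.357 and 0.357 (adjusted exact permutation p 0.92 each).

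No marker probe passed the test for maternal restriction. In femoral cells 3 of the 7 nevertheless had every restricted array above every control array, which held for 1.68% of tested probes. KRT19 averaged 5.66 ± 0.74 in restricted and 4.47 ± 0.09 in control femoral cells (SD, n = 4 each). The difference was 1.19 ± 0.31 (SE; 0.50 to 1.88; unadjusted limma p 0.00348, adjusted 0.643). Since 0 of 4 control arrays were detected, the group means give a bound of at least 1.86-fold higher in restricted cells. This bound allows for the detection floor only and is no minimum effect, because it leaves out the spread between fetuses that the interval covers. KRT7 averaged 9.08 ± 0.53 in restricted and 8.06 ± 0.35 in control femoral cells, a difference of 1.01 ± 0.26 (0.42 to 1.61; unadjusted p 0.00369, adjusted 0.643). EPCAM probe 1 averaged 5.87 ± 0.61 in restricted and 5.27 ± 0.13 in control femoral cells, a difference of 0.60 ± 0.26 (0.02 to 1.19; unadjusted p 0.0452, adjusted 0.794). Limma called 0 of the 7 marker probes, beside 0.0% of all tested probes, and 1050 of 16933 had an unadjusted p under 0.05. Without fetus restricted_2820 the KRT19 difference was 0.85, and without restricted_9075 those of KRT7 and EPCAM probe 1 were 0.76 and 0.30. CALB2 probe 1 differed by 0.44 ± 0.48 (-0.64 to 1.51) and probe 2 by -0.23 ± 0.14 (-0.54 to 0.08).

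In omental cells the diet difference of CALB2 probe 1 pointed down, by -1.08 ± 0.57 (-2.35 to 0.19; limma adjusted p 0.981), at 7.60 ± 1.27 in restricted and 8.69 ± 0.59 in control fetuses (SD, n = 4 each). Of the restricted arrays, 3 lay below all control arrays, and that of fetus restricted_9075 lay above them. Without this fetus the difference was -1.71. KRT19 differed by 0.62 ± 0.48, KRT7 by 0.29 ± 0.38 and EPCAM probe 1 by 0.73 ± 0.43 (each 0.981), and the KRT19 value ran from 0.16 to 0.90 on leaving out 1 fetus. In abdominal cells KRT19 differed by 1.35 ± 0.71 (-0.26 to 2.95; adjusted p 0.955), CALB2 probe 1 by 0.89 ± 0.54 (0.955), EPCAM probe 1 by 0.50 ± 0.42 (0.955) and KRT7 by -0.04 ± 0.43 (0.996). The abdominal KRT19 difference was 0.75 without restricted_2820 and 2.05 without restricted_9085, and that of CALB2 probe 1 ran from 0.42 to 1.24 on leaving out 1 fetus. Limma called 0 of the 7 marker probes in each of these depots, beside 0.0% of all tested probes in each, with unadjusted p under 0.05 for 804 probes in omental and 824 in abdominal cells. The intervals are wide and leave room for differences of more than 1 in either depot.

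Averaged over the depots of each fetus, KRT19 was 6.41 ± 0.89 in restricted and 5.36 ± 0.48 in control fetuses (SD, n = 4 each). This difference of 1.05 ± 0.43 (0.07 to 2.03) had an unadjusted limma p of 0.0383 and an adjusted p of 0.80, and it was 0.69 without fetus restricted_2820. EPCAM probe 1 was 5.75 ± 0.47 in restricted and 5.14 ± 0.28 in control fetuses (0.61 ± 0.24; unadjusted p 0.0307, adjusted 0.80). KRT7 differed by 0.42 ± 0.26 (adjusted p 0.841) and CALB2 probe 1 by 0.08 ± 0.49 (0.985). Limma called 0 of the 7 marker probes, beside 0.00591% of all tested probes.

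**Figure D5:**
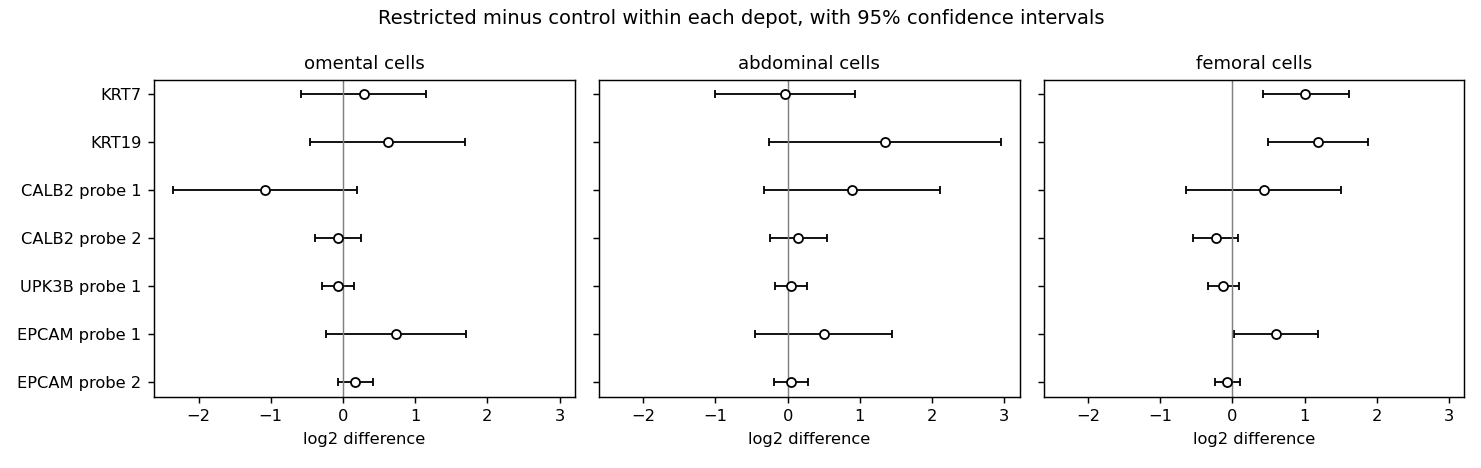
Log2 difference, restricted minus control, for the 7 tested marker probes in each depot, with 95% confidence intervals; no point passed at an adjusted p under 0.05, so all are open. In femoral cells the intervals of KRT19 (0.50 to 1.88), KRT7 (0.42 to 1.61) and EPCAM probe 1 (0.02 to 1.19) lie above 0, and the omental value of CALB2 probe 1 (-1.08) is the only one below -1.

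Whether the diet difference itself differed between depots was tested as an interaction, and limma called 0 of the 7 marker probes in each pair, beside 0.0% of all tested probes in each, with unadjusted p under 0.05 for 330 probes (omental and abdominal), 392 (omental and femoral) and 322 (abdominal and femoral). CALB2 probe 1 had the smallest member p, with a diet difference in omental minus that in abdominal cells of -1.97 ± 0.85 (-3.79 to -0.15; unadjusted p 0.0355, adjusted 1.0). For omental minus femoral the value was -1.52 ± 0.81 (-3.24 to 0.20). The diet difference of KRT7 in abdominal minus that in femoral cells was -1.05 ± 0.54 (-2.20 to 0.10; unadjusted p 0.0713, adjusted 1.0). For KRT19 the 3 values were -0.73 ± 0.93, -0.58 ± 0.62 and 0.16 ± 0.84, each smaller than its error in this fit. These errors come from the fit without a block. With the fetus as a block, the values of CALB2 probe 1 were -1.97 ± 0.37 (unadjusted limma p 0.000376, adjusted 0.999) and -1.52 ± 0.37 (0.00166, adjusted 0.997). That of KRT7 was then -1.05 ± 0.37 (unadjusted limma p 0.0164, adjusted 0.973), so none passed.

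Other mesothelial genes were split between the depots. The list held 20 genes, of which the array carried 18 and 10 passed the detection filter. Between omental and femoral cells 4 were higher and 2 lower in omental cells, beside 10.9% of tested probes called, and the median difference of the 10 was -0.05. WT1, a transcription factor of mesothelium, was higher by 1.89 ± 0.16 (SE; limma adjusted p 5.78e-07), TNNT1, a troponin, by 2.21 ± 0.36 (0.000555) and ALDH1A2, which makes retinoic acid, by 2.10 ± 0.39 (0.00181). ALDH1A2 was detected on 8 of 8 omental arrays but on only 1 of 8 femoral and 1 of 8 abdominal arrays, so its differences are set against arrays that were mostly not detected. LRRN4 was detected on 6 of 8 omental and 0 of 8 femoral arrays and was at least 1.45-fold higher (adjusted p 0.0235). The membrane proteins GPM6A and PDPN were lower, by -1.22 ± 0.20 (0.000744) and -0.51 ± 0.15 (0.0411). Between omental and abdominal cells ALDH1A2 (2.19 ± 0.36) and WT1 (1.69 ± 0.21) were higher and GPM6A (-1.21 ± 0.28) lower, each in 8 of 8 fetuses. Of all tested probes 4.62% were called for this pair, 4.19% were higher in 8 of 8 fetuses and 4.19% lower. GPM6A was detected on 5 of 8 omental arrays, at a mean of 4.86, so its omental signal was near background. BNC1, MUC16, UPK1B and ITLN1 were, like MSLN, detected on 0 arrays. The log2 of the summed signal of the 10 tested genes ran from 10.28 to 11.05 in omental, 10.11 to 11.57 in abdominal and 10.43 to 10.90 in femoral cells. The sums overlapped although single genes did not move together. Bright probes weigh most in such a sum: PDPN alone averaged 9.64 in omental and 10.15 in femoral cells.

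Among keratin and junction genes outside the marker set, 3 were called between omental and femoral cells, beside 10.9% of all tested probes. Of 6 tested further keratin genes (16 on the array), 1 was called, KRT10 (-0.23 ± 0.07; adjusted p 0.0347), and with the fetus as a block 0 were. KRT10, KRT14 and KRT23 were detected on 24 arrays, KRT9 on 23, KRT16 on 22 and KRT80 on 19, while 5 of the 16 were detected on 0 arrays. Of 5 tested simple epithelial junction genes (15 on the array) 1 was called, SPINT2, an inhibitor of membrane proteases (0.74 ± 0.16; 0.00655), and of 6 tested desmosome genes (12 on the array) 1 was called, PKP2, a plakophilin (0.83 ± 0.21; 0.0141). Of 15 junction genes on the array, 6 were detected on 0 arrays. These included CLDN3, CLDN7, OCLN and MUC1, which mark polarised epithelium. ELF3 and SPINT2 were detected on 24 arrays, CD24 on 23, and CLDN4 and the epithelial cadherin gene CDH1 on 13 each. Of 12 desmosome genes, 4 were detected on 0 arrays, among them the desmosomal cadherin gene DSG2. PKP2 was detected on 24 arrays, JUP on 23 and DSP on 18. The log2 summed signal of the 5 tested junction genes ran from 10.77 to 11.78 in omental, 10.39 to 11.97 in abdominal and 10.31 to 11.74 in femoral cells. In femoral cells it ran from 10.81 to 11.74 in restricted and 10.31 to 10.69 in control fetuses, with 0 of the 5 called for diet. The part of these genes in the femoral KRT19, KRT7 and EPCAM readings was not tested.

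Most mesenchymal and stromal genes were detected on all 24 arrays, and some differed between omental and femoral cells, where 5.33% of all tested probes were higher and 5.60% lower in omental cells. Of 10 tested mesenchymal transition genes, 1 was higher and 3 were lower in omental cells: CDH2, the neural cadherin gene, was higher by 1.12 ± 0.12 (adjusted p 1.3e-05), and the transcription factor genes TWIST2 (-1.22 ± 0.28), TWIST1 (-0.65 ± 0.18) and ZEB1 (-0.37 ± 0.10) were lower. Of 12 tested fibroblast and progenitor genes 1 was higher and 5 were lower, led by CD34 (-3.81 ± 0.29; 2.98e-07), PI16 (-1.76 ± 0.38) and CD44 (-1.62 ± 0.15), with LUM higher (0.97 ± 0.12). Of 12 smooth muscle genes 6 were higher and 0 lower, among them CNN1 (1.54 ± 0.19), DES (1.09 ± 0.24), ACTG2 (0.83 ± 0.15) and LMOD1 (0.69 ± 0.15). Of 7 tested endothelial genes TEK was lower (-2.38 ± 0.16), and of 3 tested macrophage and blood genes 0 were called. The log2 summed signals in omental, abdominal and femoral cells ran from 15.87 to 16.27, 16.10 to 16.40 and 16.04 to 16.46 for the fibroblast list. They ran from 16.73 to 16.89, 16.13 to 16.86 and 16.34 to 16.77 for the smooth muscle list, and from 7.46 to 8.15, 7.97 to 8.54 and 8.20 to 8.84 for the endothelial list. The part of the called genes of these lists in the differences of CALB2 probe 1, KRT19 and KRT7 was not tested. No gene of any list passed for diet in any depot or on the averages.

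The genes whose signal was most like that of each marker over the 24 arrays differed from marker to marker. The measure was Pearson's r over arrays that share fetuses and depots, given as a description. KRT7 was closest to IER5 (0.833), COL8A1 (0.828), a short-chain collagen gene, and PRR16 (0.763). KRT19 was closest to RTN2 (0.872), a reticulon gene, MGAT4B (0.868), a glycosyltransferase gene, and TMEM158 (0.855). Within single depots the r of MGAT4B with KRT19 was 0.946 in omental, 0.936 in abdominal and 0.635 in femoral cells. CALB2 probe 1 was closest to KCNK6 (0.857), a potassium channel gene, RBM24 (0.834), an RNA-binding protein gene, and MEIS3 (0.833), a homeobox gene. Within omental, abdominal and femoral cells the r of KCNK6 with CALB2 probe 1 was 0.745, 0.518 and 0.76. That of RBM24 was 0.705, 0.302 and 0.214, and that of MEIS3 0.262, 0.516 and 0.665. EPCAM probe 1 had weaker neighbours in GPRIN2 (0.708), CATSPER2 (0.701) and CSPG4 (0.70), and the dim UPK3B probe 1 in UGGT2 (0.757), B4GALT2 (0.74) and LOC285422 (0.726).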

How the data were processed

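Human-probe Illumina bead arrays read 24 samples of cultured cells. The authors deposited per the file headers, an average intensity for each probe on each array and its detection p-value; from the values, these were background-subtracted (negative values made up 32.0% to 37.7% of an array) and not normalised between arrays (array means 148 to 211). The authors also deposited a series matrix of intensity values, used only as an alternative. For scanner software and settings: not given in the sources used here. Symbols are those of GEO's platform annotation, possibly outdated: 28098 probes had 1 symbol, 13 several and 20692 none.

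R 4.3.3 ran limma 3.58.1 and statmod 1.5.0; neqc (offset 16) made the log2 values. Testing needed detection on at least 4 of 24 arrays. Tests were two-sided (limma, lmFit and eBayes), with p-values adjusted by Benjamini-Hochberg over all 16933 tested probes and calls made at an adjusted p under 0.05. Diet was tested within each depot (8 arrays) and on means per fetus, depots over 16 arrays with diet in the model. Gaps between keratins and CALB2 used the brightest probe per gene and exact sign-flip tests. These were tested on simulated data. Python 3.11.15, scipy 1.17.1, numpy 2.4.6, pandas 2.3.3 and matplotlib 3.10.9 were used. The number of arrays limits the precision. A bound ("at least") sets the brighter group's mean against, per dimmer array, the probe's value or the array's lowest detected signal, whichever is higher. It is a bound on the measured means and leaves out the spread between fetuses.

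Genes named were all members, up to 4 called genes per context list with the largest differences, and the 3 genes most like each member. The members and lists were chosen with earlier results of these data known. Numbers of fetuses pair the depots, since they are the same animals: same-numbered arrays deviated together, with correlations of 0.295 to 0.495 (omental and abdominal), 0.280 to 0.633 (omental and femoral) and 0.355 to 0.673 (abdominal and femoral). P-values for diet within a depot, for means per fetus and of the exact permutation tests measure the spread between fetuses. Those of the depot and interaction fits without a block treat arrays of the same fetus as independent. They therefore mix the spread between fetuses with that within them. Alternatives were the filter, background, scaling, series matrix, replicate block, sex and leaving out fetuses.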

Additional observations from a re-analysis of the deposited data

Results flagged for a closer look

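Of 42 groups of 4 arrays (7 tested marker probes in 6 groups), 5 had 1 reading set far apart from the other 3, by Dixon's criterion at the 95% level, where chance gives about 1 in 20. KRT7 in control femoral cells read 8.59 in fetus control_9017, against 7.86 to 7.93 in the others. CALB2 probe 1 in restricted omental cells read 9.49 in fetus restricted_9075, against 6.70 to 7.12. CALB2 probe 2 in restricted femoral cells read 5.26 in the same fetus, against 5.76 to 5.77. In control omental cells fetus control_8011 stood apart for EPCAM probe 1 (5.56, against 4.84 to 4.94) and for UPK3B probe 1 (4.84, against 4.66 to 4.67), a probe near background.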

How the results depend on the processing

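All 3 calls between omental and femoral cells kept their direction and side of the threshold wherever their probes were tested. With only probes detected on all 24 arrays, 1 marker probe was called there, because KRT19 and CALB2 probe 1 were then not tested. The fetus as a replicate block raised the called probes to 1629 between omental and abdominal and 30 between abdominal and femoral cells, with 3 and 1 marker probes among them, and it changed no other call of a member. Fitting all 24 arrays at once, with the fetus as a random effect, gave 1726 and 44, with 2 marker probes between omental and abdominal cells, and 4 (femoral) and 22 (averaged) probes for diet. Between omental and abdominal cells 394 probes were called with no filter, and 498 with no further background correction or with the series matrix values. With these last settings 1 probe was called for diet in abdominal cells and 0 on the averages, as also with sex in the model, without the abdominal array of restricted_9073 or with probes detected on all 24 arrays (2 probes between abdominal and femoral cells). The omental minus abdominal count was 421 without restricted_9085, 346 without control_8009, 431 without control_9087, 467 without control_8011 and 493 without control_9017 (346 to 926 over all fetuses), and the abdominal minus femoral count 8 without control_8011 or restricted_9073 (8 to 13). For diet the counts ran from 0 to 2 in omental, 0 to 1 in abdominal and 0 to 5 in femoral cells and 0 to 3 on the averages.

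Small differences changed sign, and the larger KRT19 gaps reversed with the other CALB2 probe. Median scaling gave 0.01 for UPK3B probe 1 for diet in omental cells and 0.01 on the averages. Without the abdominal array of restricted_9073, CALB2 probe 1 gave -0.01 for averaged diet, CALB2 probe 2 gave 0.01 for abdominal minus femoral, and the KRT19 interaction of that pair was -0.05. EPCAM probe 1 was -0.05 for omental minus abdominal with no further background correction and with the series matrix. With CALB2 probe 2, the KRT19 gaps became 1.23, 1.94 and 0.71 and the KRT7 gap for abdominal minus femoral -0.14. The KRT19 gap for omental minus femoral thus passed in opposite directions: -1.25 with probe 1 (adjusted exact sign-flip p 0.0187) and 1.94 with probe 2 (0.0375). Leaving out 1 fetus at a time gave -0.87 to -0.35 for the KRT19 gap between omental and abdominal cells. For CALB2 probe 2 the ranges were -0.11 to 0.02 (abdominal minus femoral), -0.12 to 0.01 (averaged diet), -0.03 to 0.25 (abdominal diet) and -0.20 to 0.04 (omental diet). For CALB2 probe 1 averaged diet ran from -0.38 to 0.39. EPCAM probe 1 ran from -0.20 to 0.23 (omental minus abdominal) and -0.36 to 0.08 (omental minus femoral), and its interactions from -0.36 to 0.65, -0.34 to 0.68 and -0.54 to 0.08. EPCAM probe 2 ran from -0.02 to 0.04 (abdominal minus femoral), -0.04 to 0.04 (omental minus femoral) and -0.01 to 0.11 (abdominal diet). UPK3B probe 1 ran from -0.05 to 0.02 (abdominal minus femoral) and -0.02 to 0.16 (omental and femoral interaction), the KRT19 abdominal and femoral interaction from -0.28 to 0.74, and KRT7 abdominal diet from -0.44 to 0.17. The cause of these shifts was not tested. Of the other settings tried, 483 values kept direction and side of the threshold, as did 575 on leaving out a fetus. Signal near background limits KRT8, KRT18, MSLN, UPK3B and EPCAM probe 2.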

Other observations

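The male fetuses had the lowest KRT19 readings of their diet group in both omental cells (6.28 in restricted_9085 and 5.14 in control_9017) and abdominal cells (4.34 and 4.53). In femoral cells they did not: restricted_9085 read 5.33, above restricted_9073 (4.99), and control_9017 read 4.47, above control_9087 (4.43) and control_8011 (4.40). These readings were picked out after the values were seen, and with 1 male per diet group, sex cannot be told apart from the fetus. With no filter on dim probes, KRT18 probe 1 passed between omental and femoral cells (0.17 ± 0.04; limma adjusted p 0.0275), although it was detected on 0 arrays.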
